A study of Mus musculus with 10 samples.

Results

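Levels of 40 macrophage and myeloid genes were examined in 10 mouse RNA-seq libraries, all labelled as fibroblast and as post-mortem. The members were given as a list of gene symbols, and all 40 were found among the 22594 genes of the table after transcript values had been summed per gene. Of the libraries, 2 were from lung at 0 h, 2 from lung at 12 h, 3 from ear at 0 h and 3 from ear at 12 h. The labels name no strain, genotype, age or sex and no agent, and all groups share the post-mortem condition. They also do not say what the hours were counted from, how the cells were isolated or grown, or whether each library had its own animal. The p-values below therefore reflect the scatter among these 10 libraries, which may be technical in part. The values are TPM, the share of transcripts that a gene holds in a library after correction for length, scaled to 1000000 per library. TPM keeps no read number, so the depth of each library is unknown and no counting interval can be given.

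The fibroblast label was compared with 12 fibroblast marker genes, and all 12 passed the filter on low values described below. Their summed level was 3887 to 7321 TPM in the 4 lung libraries and 12604 to 15841 TPM in the 6 ear libraries. The summed level of the 40 macrophage and myeloid genes was 7054 to 23131 TPM in lung and 272 to 735 TPM in ear. Lung and ear did not overlap for the sum of the 40 genes, also without Lyz1 and Lyz2, when it was 2277 to 9404 TPM in lung and 254 to 710 TPM in ear. The sums of the fibroblast markers did not overlap either, but they did without S100a4, when they were 3345 to 6655 TPM in lung and 5593 to 13919 TPM in ear. Of the 12, 6 were called lower in lung and 0 were called higher, and Col1a1 had a log2 difference of 0.32 and was not called.

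Macrophages are phagocytic cells of the innate immune system that live in nearly every tissue and engulf microbes, dead cells and debris. Their identity depends on the transcription factor PU.1, the product of Spi1, and their survival on signals through the CSF1 receptor. Lung holds alveolar macrophages in the air spaces and interstitial macrophages in the tissue, and skin holds dermal macrophages and Langerhans cells. They recognise targets through Fc receptors, scavenger receptors and Toll-like receptors, kill with an oxidase that makes superoxide, and secrete lysozyme.

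Lung and ear were first compared over both times. The 13188 genes that reached 1 TPM in 2 or more libraries were tested with limma on log2(TPM + 1). Called genes had a Benjamini-Hochberg adjusted p under 0.05 over all of them. Log2 differences below use this scale, where the pseudocount of 1 makes the change of a low gene look smaller than its ratio of TPM. Of the 40 members, 36 were tested, and Itgb2l, Cd163, Ccr2 and Cx3cr1 were too low. In lung, 34 of the 36 were higher than in ear and 0 were lower, where 12.3% of all tested genes were higher and 15.9% were lower. The exceptions were the Toll-like receptor genes Tlr2 and Tlr4. The median log2 difference was 4.19 over the 36 members and −0.11 over all tested genes. Of the 36, 19 reached the filter through lung alone, so a difference was built in for them. These 19 were Adgre1, Aif1, Cd72, Coro1a, Csf1r, Cybb, Fcgr1, Fgr, Irf8, Laptm5, Lyz1, Marco, Mrc1, Ms4a7, Msr1, Ncf1, Ptprc, Siglec1 and Spi1. The other 17 passed it in each tissue separately, and 15 of these were higher in lung. The 12.3% covers all tested genes. The share among genes that passed in each tissue was not taken, so the 15 of 17 has no matched background. Ear libraries of the same number deviated together, so they were also averaged by number and the 3 means set against the 4 lung libraries, without a term for time, an alternative added after the data were seen. In that limma fit 31 members were higher in lung and 0 were lower, where 1228 of the 13188 tested genes were higher and 1524 were lower. The calls of Aif1, Siglec1 and Cd72 were lost (limma adjusted p = 0.123, 0.0579 and 0.149).

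Every lung library was above every ear library for 33 of the 36 tested members, against 10.7% of all tested genes. The exceptions here were Cd36, Tlr2 and Tlr4, which are among the 17 members that passed the filter in each tissue. For the 19 that reached it through lung alone, a gap of this kind was in part built in. Marco was listed at 0 in all 6 ear libraries. For the other 35 tested members, the ratio of the mean TPM in lung to that in ear had a median of 107 and ran from 0.862 to 432. It was at least 10 for 30 of them and at least 100 for 18, counts that include those 19 members. Some of the highest ratios rest on ear means near 0, such as 0.0214 TPM for Fcgr1 and 0.0777 TPM for Ncf1, and are imprecise. In RNA from whole cultures, fewer cells of a type and less RNA per cell cannot be told apart. The markers of other cell types that moved with these genes are given further below.

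**Figure D1:**
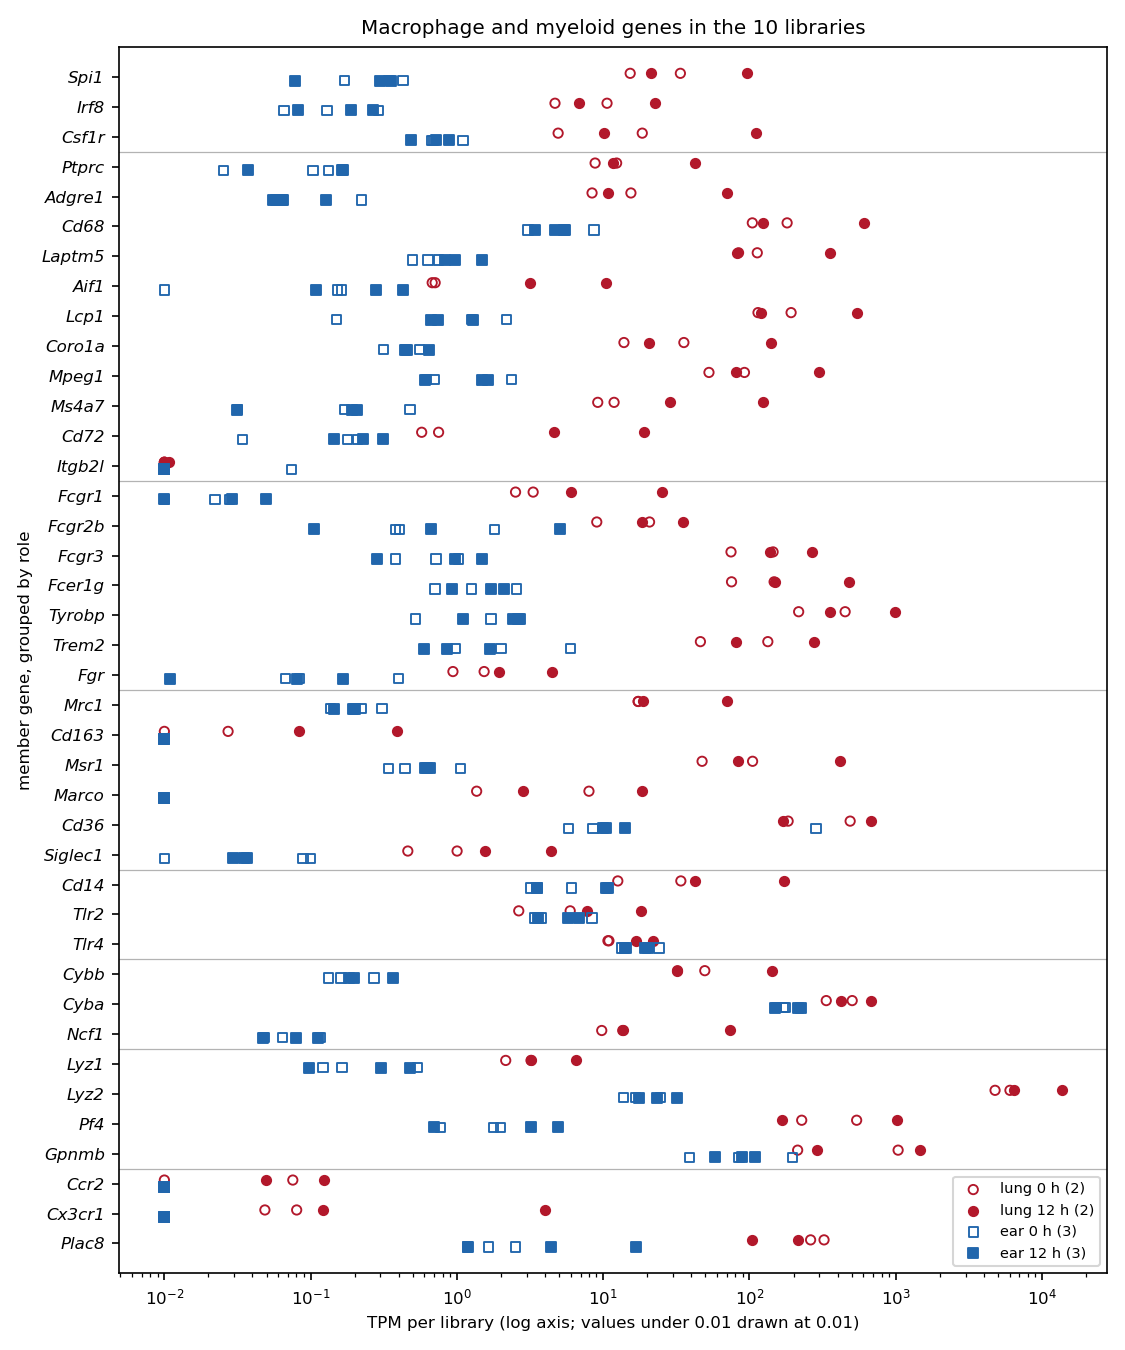
Level of the 40 genes in each of the 10 libraries, in TPM on a log axis, with values under 0.01 drawn at 0.01. Each point is 1 library. Lung points lie to the right of ear points for most genes, Gpnmb and Cd14 show the narrowest gaps among tested genes that do not overlap, and Tlr2 and Tlr4 overlap.

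Among the identity genes, Spi1, Irf8 and Csf1r were all higher in lung. Each of them reached the filter through lung alone, so a difference was built in. Lung values are given throughout in the order 0 h number 1, 0 h number 2, 12 h number 1 and 12 h number 2. Spi1 stood at 33.7, 15.3, 21.1 and 96.3 TPM in lung, and at a lowest, median and highest of 0.0788, 0.321 and 0.429 TPM in ear. Its log2 difference was 4.70 ± 0.38 (SE, limma adjusted p = 3.42e-05). Irf8, an interferon regulatory factor that steers progenitors to the monocyte and dendritic lineages, stood at 10.6, 4.68, 6.82 and 22.7 TPM in lung. In ear it was 0.0658 to 0.292 TPM, and its log2 difference was 3.17 ± 0.32 (SE, limma adjusted p = 0.000115). The 4 lung libraries exceeded all 6 ear libraries for both transcription factor genes.

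Csf1r, the receptor for CSF1 and IL-34, varied more among the lung libraries than any other identity gene. It stood at 18.5, 4.92, 10.2 and 111 TPM in lung and at 0.483, 0.706 and 1.10 TPM (lowest, median and highest) in ear. Lung 12 h number 2 exceeded the next highest lung library by a wider ratio than for any other tested member. The log2 difference over both times was 3.48 ± 0.58 (SE, limma adjusted p = 0.00208). At 0 h alone it was 2.57 and was not called (limma adjusted p = 0.0802). Of its ligands and the related CSF genes, 8 in all, 6 were tested, 4 were higher in lung and 1 was lower. The lower gene was Il34, which encodes the ligand IL-34, at 0.829 to 2.42 TPM in lung and 3.86 to 7.27 TPM in ear. Csf1 itself was 240.1 to 467 TPM in lung and 123 to 214 TPM in ear (log2 difference 0.89). Csf2rb, the shared signalling chain of the GM-CSF receptor, was 13.1 to 53.0 TPM in lung and at most 0.456 TPM in ear. Csf2ra, the GM-CSF binding chain, was 7.18 to 31.2 TPM in lung and 1.42 to 3.27 TPM in ear.

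PU.1 binds a purine-rich core, and the letters GAGGAA and the longer GAGGAAGT were searched on either strand of promoter windows from RefSeq (GRCm38.p6), 250 bases before to 50 after a gene's start. The longer form contains the shorter one. Of the 40 members, 32 had a window, with 39 windows in all. GAGGAA was found in 17 of the 39 windows (43.6%) and in 28.3% of the 32851 windows of all genes. GAGGAAGT was found in 3 of the 39 (7.69%) and in 3.20% of all windows. A match describes letters and does not show that a factor binds. The 250 bases before the start are shown for the 3 genes with the longer form, since one of them, Itgb2l, carried a match and was close to 0 in every library. Capitals mark the matches. Those read on the opposite strand appear as the reverse complement.
Pf4 (chr5:90772185-90772434, plus strand): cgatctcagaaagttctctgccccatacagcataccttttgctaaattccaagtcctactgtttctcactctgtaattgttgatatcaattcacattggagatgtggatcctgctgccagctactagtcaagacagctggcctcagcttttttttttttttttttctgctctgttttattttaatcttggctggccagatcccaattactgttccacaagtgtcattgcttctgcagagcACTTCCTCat
Cd72 (chr4:43454627-43454876, minus strand): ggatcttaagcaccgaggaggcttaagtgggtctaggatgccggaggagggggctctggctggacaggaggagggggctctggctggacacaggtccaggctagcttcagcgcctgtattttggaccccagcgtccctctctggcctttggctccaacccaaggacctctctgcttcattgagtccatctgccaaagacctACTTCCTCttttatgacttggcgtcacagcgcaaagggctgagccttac
Itgb2l (chr16:96443615-96443864, minus strand): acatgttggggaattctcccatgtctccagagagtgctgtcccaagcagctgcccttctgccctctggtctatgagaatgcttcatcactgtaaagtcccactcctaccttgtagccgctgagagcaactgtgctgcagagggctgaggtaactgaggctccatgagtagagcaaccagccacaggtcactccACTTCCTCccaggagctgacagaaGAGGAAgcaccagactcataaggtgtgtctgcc
The match lies 10 bases before the start in Pf4 and 49 bases before it in Cd72, and the Itgb2l window holds matches at 57 and 33 bases. The levels behind these windows were far apart. Pf4 reached 1021 TPM in lung, Cd72 reached 18.9 TPM, and Itgb2l did not exceed 0.0742 TPM in any library. Itgb2l, an integrin subunit gene related to Itgb2, was listed at 0 in 2 of 4 lung and 5 of 6 ear libraries.

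The leukocyte and macrophage surface and cytoskeletal group held 11 members, of which 10 were tested and all 10 were higher in lung. Cd68, a lysosomal glycoprotein of macrophages, stood at 181, 105, 124 and 603 TPM in lung and at 3.07, 5.03 and 8.67 TPM in ear. Lcp1, which encodes the leukocyte actin-bundling protein L-plastin, stood at 193, 114, 120.4 and 541 TPM in lung and at 0.150, 1.00 and 2.18 TPM in ear. Laptm5, a lysosomal membrane protein of blood cells, stood at 113, 84.2, 82.3 and 353 TPM in lung and at 0.497, 0.791 and 1.49 TPM in ear. The order of the lung libraries differed slightly between the 3 genes, but lung 12 h number 2 was highest each time. Their log2 differences were 5.05 ± 0.43, 6.65 ± 0.43 and 6.15 ± 0.35 (SE), with limma adjusted p-values of 4.13e-05, 8.51e-06 and 3.53e-06. The most abundant Lcp1 transcript has 229 annotated coding bases, and with gene sums that leave out such short transcripts the Lcp1 difference was 6.03.

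The other tested genes of this group had log2 differences of 1.54 (Aif1) to 5.62 (Mpeg1). Ptprc, the pan-leukocyte phosphatase CD45, was 8.80 to 42.2 TPM in lung and at most 0.166 TPM in ear. Adgre1, the gene of the F4/80 antigen, was 8.39 to 69.7 TPM in lung and at most 0.223 TPM in ear. Coro1a, an actin regulator of leukocytes, was 13.9 to 139.7 TPM against at most 0.645 TPM, and Mpeg1, a pore-forming protein of phagocytes, was 52.9 to 299 TPM against at most 2.36 TPM. Ms4a7, a tetraspanning membrane protein, was 9.18 to 124 TPM in lung and at most 0.477 TPM in ear. Aif1, the calcium-binding protein IBA1, was low throughout, at 0.678 to 10.5 TPM in lung and at most 0.427 TPM in ear. Cd72, a regulatory co-receptor of B cells and macrophages, was 0.574 to 18.9 TPM in lung and at most 0.311 TPM in ear.

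The Fc receptor and ITAM signalling group held 7 members, all tested and all higher in lung. Tyrobp encodes DAP12, an adaptor that carries an activating motif for receptors such as TREM2. It stood at 451, 217, 353 and 989 TPM in lung and at 0.521, 2.06 and 2.71 TPM in ear. Its log2 difference was 7.31 ± 0.37 (SE, limma adjusted p = 2.31e-06). Fcer1g, the common gamma chain of Fc receptors, stood at 147, 75.4, 150.4 and 482 TPM in lung and at 0.707, 1.49 and 2.56 TPM in ear. Fcgr3, a low-affinity IgG receptor that signals through that chain, stood at 145, 74.8, 139 and 266 TPM in lung and at 0.286, 0.843 and 1.48 TPM in ear. The log2 differences of Fcer1g and Fcgr3 were 6.11 ± 0.36 and 6.34 ± 0.28 (SE), with limma adjusted p-values of 4.94e-06 and 1.26e-06. For all 3 genes lung 0 h number 2 was the lowest lung library, and it still exceeded the highest ear library by at least 29.4 times.

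Fcgr2b, the inhibitory IgG receptor, had a narrower gap, at 9.04 to 35.3 TPM in lung and 0.106 to 5.09 TPM in ear. Its 5.09 TPM came from ear 12 h number 1, where the summed level of 9 mast cell and basophil markers was 59.6 TPM, against 3.50 to 25.6 TPM in the other ear libraries. The part of such cells in that value was not tested. Fcgr1, the high-affinity IgG receptor, had the highest ratio of mean TPM, 432, on levels of 2.52 to 25.0 TPM in lung and at most 0.0492 TPM in ear. Fcgr1, Fcgr2b and Fcgr3 belong to a family of related sequences, and their values depend on how shared reads were divided. Trem2, a lipid-sensing receptor of macrophages, was 46.2 to 276 TPM in lung and 0.594 to 5.96 TPM in ear. Fgr, a Src-family kinase, was 0.939 to 4.48 TPM in lung and at most 0.400 TPM in ear.

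Of 15 further genes of ITAM signalling, 15 were tested, 14 were higher in lung and 0 were lower. The 3 most abundant were Lilrb4a, Sirpa and Ptpn6. Lilrb4a, an inhibitory receptor, was 102 to 628 TPM in lung and 0.818 to 3.06 TPM in ear (log2 difference 6.37). Ptpn6, the phosphatase SHP-1, was 14.1 to 103 TPM in lung and 0.483 to 2.04 TPM in ear. Sirpa, the receptor for CD47, was the gene not called, at 65.1 to 284 TPM in lung and 31.8 to 73.8 TPM in ear (limma adjusted p = 0.0603).

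**Figure D2:**
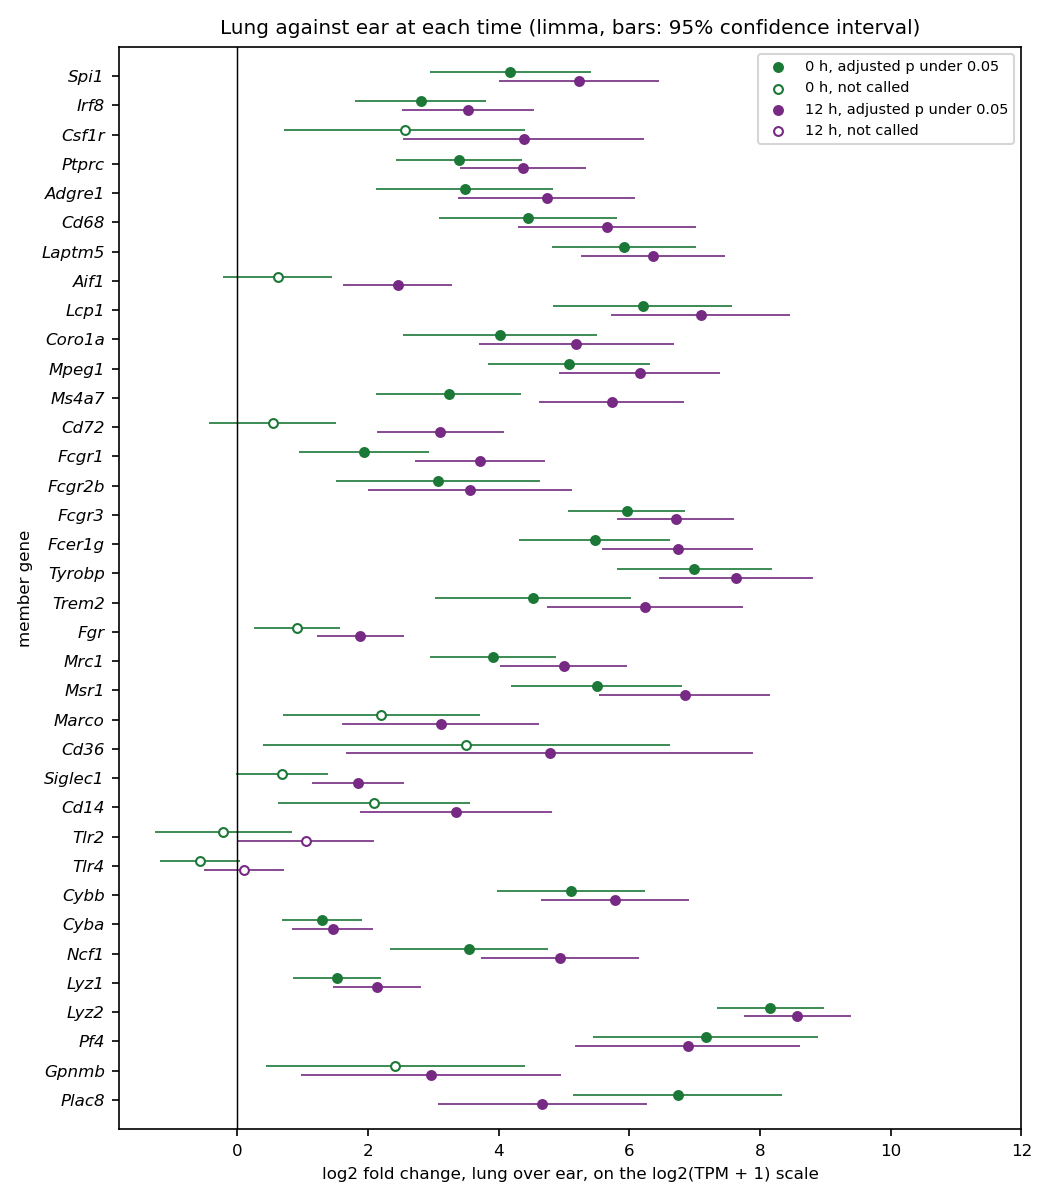
Log2 difference of lung over ear for the 36 tested genes at 0 h and at 12 h, with 95% confidence intervals from limma on the log2(TPM + 1) scale. Filled points have an adjusted p under 0.05. At 0 h, 25 genes were called, and at 12 h, 34 were.

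Scavenger and lectin receptors held 6 members, of which 5 were tested and all 5 were higher in lung over both times. Msr1, the class A scavenger receptor, stood at 105, 47.4, 83.2 and 416 TPM in lung and at 0.340, 0.613 and 1.05 TPM in ear. Mrc1, the mannose receptor CD206, stood at 17.3, 17.4, 18.8 and 70.5 TPM in lung and at 0.137, 0.198 and 0.308 TPM in ear. The lung libraries other than 12 h number 2 lay between 17.3 and 18.8 TPM, and that library stood far above them. The log2 differences of Msr1 and Mrc1 were 6.17 ± 0.41 and 4.45 ± 0.30 (SE), with limma adjusted p-values of 1.02e-05 and 1.13e-05. Marco, a scavenger receptor known from alveolar macrophages, stood at 1.36, 7.99, 2.85 and 18.5 TPM in lung. Siglec1, a sialic acid-binding receptor, was 0.462 to 4.42 TPM in lung and at most 0.0998 TPM in ear.

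Cd36, a fatty acid and lipoprotein receptor of macrophages, fat cells and capillaries, was the scavenger receptor gene whose tissues overlapped. It stood at 488, 184, 169.6 and 677 TPM in lung. In ear it was 285, 5.79 and 8.50 TPM at 0 h and 9.99, 10.5 and 14.0 TPM at 12 h. Ear 0 h number 1 thus lay within the lung range, and the other 5 ear libraries lay far below it. The log2 difference over both times was 4.15 ± 0.98 (SE, limma adjusted p = 0.0121). At 0 h it was 3.51 and not called, and it was 5.23 (limma adjusted p = 0.0026) without ear 0 h number 1, in a range of 0.000683 to 0.574 over the alternatives. The call over both times was lost without lung 0 h number 1 (limma adjusted p = 0.0564) and without lung 12 h number 2 (limma adjusted p = 0.0502), in a range of 0.000144 to 0.0564 over 21 alternatives. In the same ear library, 10 adipocyte markers summed to 3199 TPM, against 185 to 596 TPM in the other ear libraries. That list was chosen after the values had been seen, and its part in the Cd36 value was not tested. Summed levels of the 10 markers in lung were 64.6 to 241 TPM.

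Pattern recognition receptors differed most from the rest. Cd14, the lipopolysaccharide co-receptor, was the one of 3 that was called, and Tlr2 and Tlr4, the receptors for bacterial lipoproteins and for lipopolysaccharide, were not. Cd14 stood at 34.0, 12.6, 42.5 and 172 TPM in lung and at 3.20, 4.80 and 10.8 TPM in ear. Its lowest lung library exceeded its highest ear library by 1.17 times, and the log2 difference was 2.72 ± 0.46 (SE, limma adjusted p = 0.00227). Tlr4 stood at 10.8, 10.9, 16.7 and 22.1 TPM in lung. In ear it was 24.0, 14.0 and 13.4 TPM at 0 h and 19.4, 14.2 and 20.2 TPM at 12 h. The tissues overlapped, and the highest value of all was in ear. Tlr4 was the tested member with the mean lower in lung, by a log2 difference of −0.23 (95% confidence interval −0.66 to 0.20, limma adjusted p = 0.412). This interval lies below that of every called member.

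Tlr2 stood at 2.65, 5.95, 7.70 and 18.3 TPM in lung. In ear it was 8.38, 3.42 and 3.75 TPM at 0 h and 5.76, 3.59 and 6.88 TPM at 12 h. Here too the tissues overlapped, with the lowest and the highest value both in lung. The log2 difference was 0.42 (95% confidence interval −0.32 to 1.16, limma adjusted p = 0.377). Of 13 further Toll-like receptor and adaptor genes, 11 were tested and 3 were higher in lung, namely Tlr7, Tlr8 and Tlr13. These 3 were named after their values had been seen. The adaptor genes Myd88 and Tirap and the kinase gene Irak4, the highest of the list in mean TPM over the 10 libraries, were not called, with log2 differences of −0.28, −0.37 and 0.12.

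The NADPH oxidase held 3 members, all higher in lung, by very different ratios. Cybb, the catalytic subunit gp91phox, stood at 49.5, 32.2, 31.8 and 143 TPM in lung and at 0.132, 0.191 and 0.368 TPM in ear. Ncf1, the organiser subunit p47phox, stood at 13.6, 9.77, 13.6 and 73.9 TPM in lung and at 0.0472, 0.0720 and 0.116 TPM in ear. Cyba, the partner subunit p22phox, which other NADPH oxidases also use, stood at 504, 335, 419.6 and 682 TPM in lung and at 149, 173 and 227 TPM in ear. The ratio of mean TPM was 293 for Cybb and 357 for Ncf1 but 2.67 for Cyba, whose libraries still did not overlap. The log2 differences were 5.45 ± 0.35, 4.24 ± 0.38 and 1.38 ± 0.19 (SE), with limma adjusted p-values of 8.58e-06, 5.85e-05 and 0.000832. Of 4 further oxidase genes, all 4 were tested and higher in lung. Hvcn1, a proton channel that supports the oxidase, was 50.6 to 260 TPM in lung and 2.35 to 20.2 TPM in ear. Rac2, a small GTPase, was 26.6 to 142 TPM in lung and under 1 TPM in every ear library.

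Lysozymes and other secreted or vesicle proteins held 4 members, all higher in lung. Lyz2, the macrophage lysozyme, stood at 6037, 4775, 6451 and 13720.4 TPM in lung and at 13.8, 20.6 and 31.9 TPM in ear. Every lung value was at least 149.8 times the highest ear value, the widest gap of the tested members with a value in ear. Lyz2 alone held 56.3% to 70.0% of the summed level of the 40 genes in a lung library. Its log2 difference was 8.37 ± 0.26 (SE, limma adjusted p = 3.4e-07). Lyz1, the neighbouring lysozyme gene known from Paneth cells of the gut, stood at 3.21, 2.16, 3.23 and 6.50 TPM in lung and at 0.0973, 0.233 and 0.538 TPM in ear. The log2 difference of Lyz1 was 1.83 ± 0.21 (SE, limma adjusted p = 0.000265). The genes are close copies on chromosome 10, Lyz2 at chr10:117277331-117282321 and Lyz1 at chr10:117287797-117292868, both on the minus strand, so the level of Lyz1 depends on how reads shared with Lyz2 were divided. The 250 bases before each start (RefSeq, GRCm38.p6) are shown since the levels lay far apart while these stretches are alike.
Lyz2 (chr10:117282273-117282522, minus strand): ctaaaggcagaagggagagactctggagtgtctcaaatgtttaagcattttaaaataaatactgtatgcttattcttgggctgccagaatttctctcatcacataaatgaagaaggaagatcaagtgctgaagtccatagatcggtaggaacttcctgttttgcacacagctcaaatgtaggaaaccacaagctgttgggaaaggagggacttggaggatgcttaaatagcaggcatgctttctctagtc
Lyz1 (chr10:117292869-117293118, minus strand): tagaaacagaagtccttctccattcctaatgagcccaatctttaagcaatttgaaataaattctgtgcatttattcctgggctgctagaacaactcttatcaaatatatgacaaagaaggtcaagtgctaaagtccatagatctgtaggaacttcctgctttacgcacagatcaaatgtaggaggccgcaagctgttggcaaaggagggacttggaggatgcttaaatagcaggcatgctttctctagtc
Of 248 aligned bases, 80.6% were identical. Neither stretch holds GAGGAA on either strand, which says nothing of other forms of the site.

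Pf4, a chemokine of platelets that some tissue macrophages also make, stood at 540.4, 228, 167 and 1021 TPM in lung and at 0.702, 1.87 and 4.90 TPM in ear (log2 difference 7.03 ± 0.54, SE, limma adjusted p = 2.41e-05). Gpnmb, a glycoprotein of lipid-laden macrophages that fibroblasts and pigment cells also make, stood at 1038, 214, 291 and 1468 TPM in lung. In ear it was 198, 38.9 and 85.0 TPM at 0 h and 88.4, 58.4 and 109 TPM at 12 h. The lowest lung library exceeded the highest ear library by 1.08 times. The log2 difference was 2.70 ± 0.62 (SE, limma adjusted p = 0.0111), and without lung 0 h number 1 it was 2.13 and not called (limma adjusted p = 0.0515, the highest of 21 alternatives, with a lowest of 0.00631).

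The monocyte and chemokine receptor group held Plac8, Cx3cr1 and Ccr2. Plac8, a small cysteine-rich protein of myeloid and epithelial cells, stood at 262, 323, 216 and 104 TPM in lung. In ear it was 1.19, 1.64 and 2.52 TPM at 0 h and 16.7, 1.20 and 4.37 TPM at 12 h. All lung libraries were above all ear libraries, and the log2 difference was 5.71 ± 0.50 (SE, limma adjusted p = 5.31e-05). The 16.7 TPM came from ear 12 h number 1, which also had the mast cell markers named above. Cx3cr1, the fractalkine receptor of patrolling monocytes and resident macrophages, stood at 0.0803, 0.0487, 0.122 and 4.02 TPM in lung and was listed at 0 in all 6 ear libraries. Ccr2, the receptor that draws inflammatory monocytes out of the marrow, was at most 0.122 TPM in lung and listed at 0 in ear. Cd163, a haemoglobin scavenger receptor of resident macrophages, was at most 0.388 TPM in lung and 0.00918 TPM in ear. Plac8 was therefore the one gene of this group at an appreciable level in more than 1 library.

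The same contrast was then made at each time. At 0 h, 25 of the 36 members were higher in lung and 0 were lower, where 6.11% of all tested genes were higher and 5.17% were lower. At 12 h, 34 were higher and 0 were lower, where 8.07% and 9.12% of all tested genes were. Those not called at 0 h were Cd36, Aif1, Csf1r, Marco, Siglec1, Tlr2, Cd72, Fgr, Gpnmb, Tlr4 and Cd14. Those not called at 12 h were Tlr2 and Tlr4. The calls of Cd36 (limma adjusted p = 0.0430) and Gpnmb (limma adjusted p = 0.0473) at 12 h were lost under 9 and 8 of 20 alternatives, with ranges of 0.00145 to 0.22 and 0.0233 to 0.283. Leaving out lung 12 h number 2 or any of the ear 12 h libraries ended both, and the call of Cd36 was also lost without any of the other lung libraries and that of Gpnmb without ear 0 h number 3. The median log2 difference of the members was 3.49 at 0 h and 4.76 at 12 h, against −0.08 and −0.14 over all tested genes. Without lung 0 h number 1 it was 3.17 at 0 h, against −0.04 over all tested genes. Without lung 12 h number 2 it was 3.81 over 34 members at 12 h, against −0.20. Those fits leave 1 lung library at that time, and they called fewer members and fewer of all tested genes. The calls at 0 h and 12 h are separate. The difference between the times was tested directly as the interaction of tissue and time, given next.

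Between 12 h and 0 h in lung, 0 of the 36 members were called in either direction by limma, where 0.00758% of tested genes were called higher and 0 lower. At an unadjusted p under 0.05 there were 11 of the 36 members and 3.99% of all tested genes. The log2 difference was positive for 35 of the 36, with a median of 0.94 and a range of −0.95 to 2.67, and the gene below 0 was Plac8. In ear, 0 members and 0 of the tested genes were called by limma. An unadjusted p under 0.05 was found for 0 members and 1.66% of all tested genes, and the median of the members was 0.04. Laptm5 was the one tested member with all 3 ear libraries at 12 h above all 3 at 0 h, where 3.93% of tested genes were, and 0 members were below, where 1.44% were. For the interaction, 0 members and 0 of the tested genes were called by limma. There, 6 members and 2.93% of all tested genes had an unadjusted p under 0.05, and the median of the members was 1.06. The lung values rest on the 2 libraries at 12 h, which lay far apart. Without lung 12 h number 2 the difference in lung was positive for 21 of 34 members, with a median of 0.12, against −0.06 over all tested genes. Without lung 12 h number 1 it was positive for 33 of 34 members, with a median of 1.85, against 0.04 over all tested genes. Each of these fits leaves 1 library at 12 h in lung, so only the size of the difference is given.

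Lung 12 h number 2 had the highest level of the 4 lung libraries for 35 of the 36 tested members, where it was highest for 37.2% of all tested genes. Its level over the next highest lung library had a median of 2.86 for the members and 0.889 for all tested genes with a value. Plac8 was the exception, being lowest in that library. Lung 0 h number 2 was the lowest lung library for 25 of the 36, against 16% of all tested genes. The summed level of the 40 genes in lung was 10727 and 7054 TPM at 0 h and 9209 and 23131 TPM at 12 h, so the 2 libraries at 12 h lay on either side of the first at 0 h. In the same order, fibroblast markers summed to 3887, 7321, 4679 and 5758 TPM, and 8 smooth muscle markers to 10587, 10096, 17803 and 9115 TPM. The part of the makeup of these cultures in the spread of the 40 genes was not tested.

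Because the members moved together between lung libraries, each was also expressed as a ratio to Ptprc within a library, a description chosen after the values had been seen. The highest ratio over the lowest had a median of 2.06 over 35 members, where the highest TPM over the lowest had a median of 5.98 for the same genes. For 16 of the 35, among them Spi1, Cd68, Tyrobp, Fcgr3, Msr1, Mrc1 and Lyz2, the ratio varied less than 2-fold across the 4 libraries. Ptprc is itself a member and was highest in lung 12 h number 2, so a smaller spread was in part built in. The spread of this ratio was not taken over all tested genes, so these values have no background. Others did not keep a steady ratio. Plac8 varied most, at 21.2, 36.7, 18.7 and 2.47 times Ptprc, followed by Marco at 0.110, 0.908, 0.246 and 0.438 times, and in Marco the times overlapped. Cd72 stood at 0.0607, 0.0652, 0.400 and 0.448 times Ptprc. Aif1 stood at 0.0575, 0.0770, 0.275 and 0.249 times Ptprc, and Ms4a7 at 0.961, 1.04, 2.45 and 2.94 times. In each of Cd72, Aif1 and Ms4a7 both 12 h libraries were above both 0 h libraries, although the 2 libraries at 12 h differed several-fold in TPM.

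The ratios were repeated with Tyrobp and with the geometric mean of the other members in place of Ptprc. By Ptprc, both 12 h libraries were above both 0 h libraries for 6 of 35 members and below them for 7, against 0.591% and 41.5% of all tested genes. By Tyrobp they were above for 7 of 34 members and below for 2, against 0.834% and 24.2%. By the geometric mean they were above for 6 of 35 and below for 6, against 0.318% and 40.6%. By all 3 denominators, Aif1, Cd14, Cd72, Fcgr1 and Ms4a7 were higher in both 12 h libraries, and Cd36 and Pf4 were lower in both. In TPM, without any ratio, both 12 h libraries were above both 0 h libraries for 14 of the 36 members, against 11.1% of all tested genes, and below them for 1, against 14.3%. With 2 libraries a time the smallest exact two-sided p is 0.333, so these orders have no test that could reach the threshold. In limma the log2 difference of Cd72 at 12 h was 2.67 ± 0.47 (SE, unadjusted p = 0.000285, limma adjusted p = 0.536), that of Ms4a7 was 2.41 ± 0.54 and that of Aif1 was 2.04 ± 0.41.

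**Figure D3:**
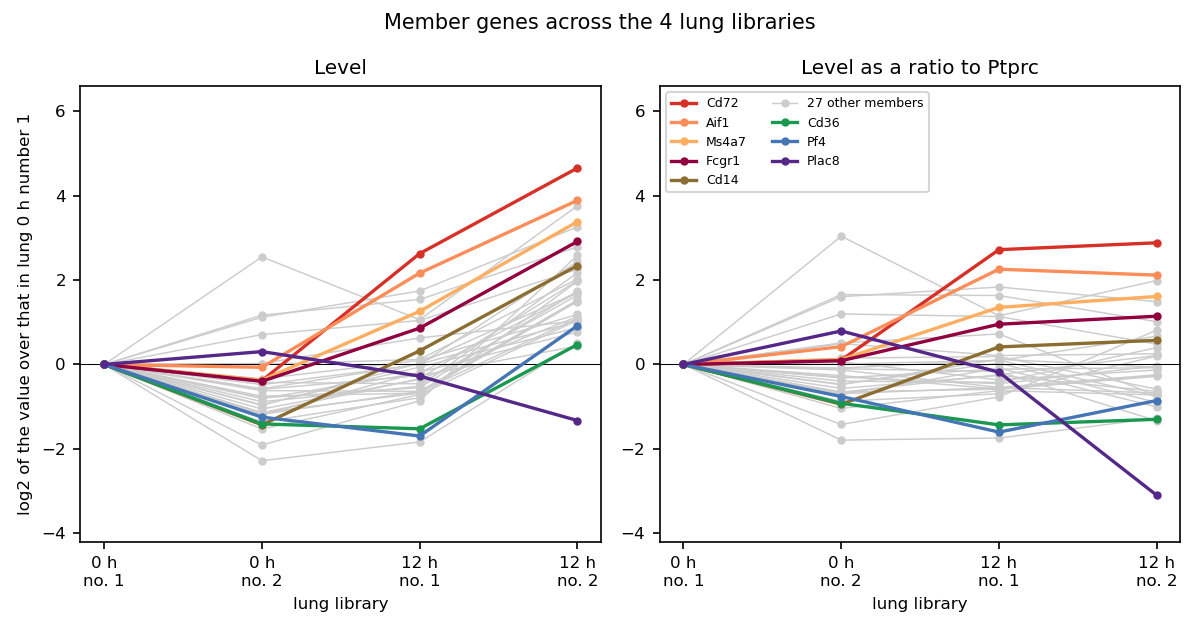
Levels across the 4 lung libraries as log2 of the value over that in lung 0 h number 1, in TPM (left) and as a ratio to Ptprc (right). Each line joins the values of 1 gene and carries no order in time within a group. In the left panel nearly all lines end high in 12 h number 2, and in the right panel most lie near 0, with Cd72, Aif1 and Ms4a7 above in both 12 h libraries and Plac8 lowest in 12 h number 2.

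In ear the 40 genes were low but not uniform. Ear 0 h number 1 had the highest level of the 6 ear libraries for 18 of the 36 tested members, against 31% of all tested genes. Its summed level, 735 TPM, was the highest, and the others lay between 272 and 438 TPM. Cyba, Gpnmb and, in that one library, Cd36 held most of these sums. Without Lyz2, Cd68, Gpnmb, Cd36, Cyba and Tlr4, the other 34 genes summed to 17.1 to 55.7 TPM in ear and to 1432 to 5958 TPM in lung. The highest of these ear sums was in ear 12 h number 1.

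Lists of macrophage subsets were compared in the same way over both times. Of 12 alveolar macrophage genes, 10 were tested, 7 were higher in lung and 1 was lower. Ear2, a ribonuclease, was 49.4 to 125 TPM in lung and at most 0.747 TPM in ear, and Plet1 was 26.2 to 71.0 TPM in lung and 5.17 to 7.64 TPM in ear. Fabp4, a fatty acid-binding protein of alveolar macrophages and fat cells, was the gene that was lower in lung, at 26.5 to 36.4 TPM against 65.9 to 2070.0 TPM in ear. Of 12 interstitial and resident macrophage genes, 7 were tested, 4 were higher and 2 were lower in lung, and Cd209f was listed at 0 in all libraries. The higher genes were Cd83, Folr2, Mgl2 and C5ar1, and the lower ones were Cbr2 and Gas6. Of 8 monocyte genes, 6 were tested, 2 were higher and 2 were lower, and Fcnb was listed at 0 throughout. Of 8 genes of multinucleated macrophages and osteoclasts, 4 were tested and all 4 were higher in lung. The other 4, Dcstamp, Ocstamp, Oscar and Calcr, were under 1 TPM in all libraries and not tested. Among them Ctsk, a collagen-degrading protease that fibroblasts also make, was 115 to 332 TPM in lung and 71.5 to 102 TPM in ear. Atp6v0d2, a proton pump subunit, was 61.3 to 146.6 TPM in lung and at most 1.13 TPM in ear.

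Of 8 genes of class II antigen presentation, 3 were tested and 1 was higher in lung. H2-Ab1 was 6.93 to 21.8 TPM in lung and 10.6 to 30.8 TPM in ear, and Cd74, the invariant chain, was 0.449 to 2.81 TPM in lung and at most 0.268 TPM in ear. Of 14 other myeloid transcription factor genes, 12 were tested, 3 were higher and 2 were lower in lung. Cebpb was 27.3 to 50.6 TPM in lung and 32.9 to 85.6 TPM in ear and was not called, and Klf4 and Runx1 were lower in lung, with log2 differences of −0.79 and −0.81. Of 5 leukocyte integrin genes, all were tested and 4 were higher in lung. Itgb2, the common beta chain, was 66.3 to 341 TPM in lung and 0.270 to 2.27 TPM in ear.

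Markers of other blood cells were mostly near 0. Of 9 dendritic and Langerhans cell genes, 1 was tested and 0 were called by limma in this contrast, the tested gene being Zbtb46 with a log2 difference of 0.09 (limma adjusted p = 0.798), and Flt3, Xcr1 and Siglech were listed at 0 in all libraries. Of 12 lymphocyte genes, 1 was tested and was higher in lung, and Cd8a and Klrb1c were listed at 0. The lymphocyte sum was 2.74 to 5.22 TPM in lung and 0.689 to 1.76 TPM in ear. Of 10 neutrophil genes, 3 were tested and 2 were higher in lung, with a sum of 40.3 to 60.4 TPM in lung and 2.01 to 14.6 TPM in ear. S100a8, a calcium-binding protein of neutrophils and monocytes, led it at 36.5 to 57.3 TPM in lung. Of 9 mast cell and basophil genes, 6 were tested and 1 was higher in lung, Mcpt8, a basophil protease, at 13.3 to 51.1 TPM against 1.05 to 4.02 TPM in ear. The median log2 difference of the 6 was −1.14. Cma1 and Mcpt4, proteases of mast cells, were at most 0.0508 and 0.0760 TPM in lung and up to 18.3 and 16.7 TPM in ear, and were not called. Added together, the dendritic, lymphocyte, neutrophil and mast cell lists came to 0.266% to 1.53% of the summed level of the 40 genes in a lung library. Lyz2 alone held 56.3% to 70.0% of that level. In TPM the lists came to 61.4 to 108 in lung, where the members without Lyz1 and Lyz2 summed to 2277 to 9404. Sums of unlike markers do not give numbers of cells.

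Other tissue markers also differed between lung and ear, and their part in the differences above was not tested. Of 10 epithelial genes, 7 were tested and 6 were higher in lung, with a sum of 14.1 to 45.4 TPM in lung and 2.34 to 4.88 TPM in ear. All 7 tested smooth muscle genes of 8 were higher in lung, with a sum of 9115 to 17803 TPM against 203 to 2692 TPM. Of 8 endothelial genes, 5 were tested, 1 was higher and 3 were lower in lung. Of the 12 fibroblast genes, 6 were lower in lung and 0 were higher, led in level by S100a4 at 542 to 864 TPM against 1922 to 8381 TPM. Macrophage and myeloid genes were thus not the one set of transcripts that set the lung libraries apart.

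**Figure D4:**
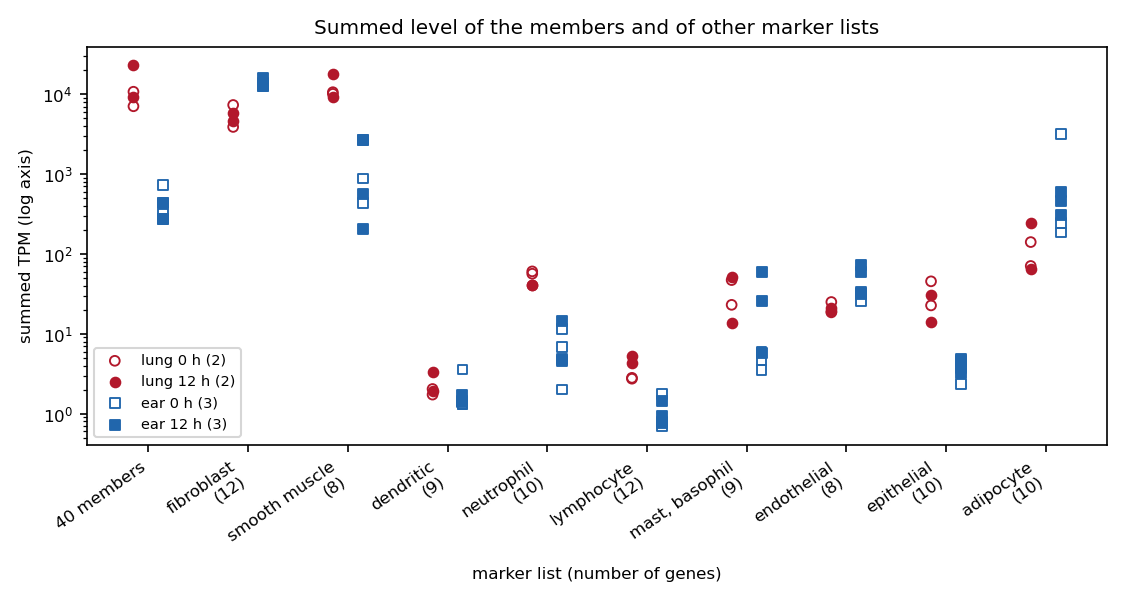
Summed TPM of the 40 macrophage and myeloid genes and of other marker lists in each library, on a log axis, with the number of genes in brackets. Each point is 1 library. The 40 genes and smooth muscle, neutrophil, lymphocyte and epithelial markers were higher in every lung library, the lymphocyte sums at no more than 5.22 TPM. Fibroblast markers, with S100a4 as part of the sum, and endothelial markers were higher in every ear library. Adipocyte markers stood out in ear 0 h number 1 at 3199 TPM.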

How the data were processed

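Per the submitters' processing notes, the authors made the deposited TPM values with kallisto 0.44.1, which assigns reads to transcripts by pseudoalignment, on GRCm38. The sources used here do not give the transcript index, trimming or read numbers. The table has 61440 transcripts, and 60503 were matched to GENCODE vM21 by Ensembl ID and summed per gene. Transcripts of a gene with equal coding bases but unequal exons had TPM equal within 0.1% in 4429 of 4429 pairs, against 28 of 18655 pairs (0.150%) with unequal coding bases, so the values behave as if computed on coding sequences.

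Gene sums were taken as log2(TPM + 1) after a filter of 1 TPM in 2 libraries. A model with 1 mean per group of tissue and time was fitted with limma 3.58.1 (eBayes with trend, 6 residual and 3.23 prior degrees of freedom) in R 4.3.3, and tested on simulated data with known changes. All tests were two-sided. Exact permutation tests of 9 members treated the 6 ear libraries as independent, which does not hold if the numbers pair them, and are not given. The main limma fit has no term for such a pairing either, so its p-values for lung against ear may be too small. With the 3 ear means against 4 lung libraries the smallest exact permutation p is 0.0571, so that test cannot reach the threshold.

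Library values are given in full for the members, at most 3 in each of 8 role groups, with the highest mean TPM, and other genes are given by range. Cd72, Aif1, Ms4a7, Fcgr1, Tlr7, Tlr8 and Tlr13 were singled out after their values were seen. The members, the 19 other lists and the tests were chosen with earlier results of these data known. Same-numbered ear libraries deviated together (correlations of 0.453, 0.320 and 0.377 of their deviations from the group means). Ear libraries of unlike number at the other time had correlations of −0.491 to 0.266. The numbers were therefore taken to pair the ear samples, although the labels do not say what they mark. In lung the correlation of same-numbered libraries was −0.443. Alternatives were another pseudocount, other filters, upper-quartile and quantile scaling, array weights, a replicate block and leaving out each library. Added after the data were seen were a crossed block in lung, leaving out 2 libraries that stand apart, leaving Lyz2 out of the totals, gene sums without short transcripts, and averages of same-numbered ear libraries.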

Additional observations from a re-analysis of the deposited data

Results flagged for a closer look

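Within a tissue, the gap between the most extreme library and its nearest neighbour was compared with the range of the libraries (Dixon's ratio) in 44 groups of values, and 3 exceeded the critical value, where chance gives 2.2 at 1 in 20. Cd36 stood at 285 TPM in ear 0 h number 1, against 5.79 to 14.0 TPM in the other ear libraries. Mrc1 stood at 70.5 TPM in lung 12 h number 2, against 17.3 to 18.8 TPM in the other lung libraries. Ncf1 stood at 73.9 TPM in the same lung library, against 9.77 to 13.6 TPM in the others.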

How the results depend on the processing

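With ear libraries of the same number averaged, 31 members were called higher over both times and 0 were lower, against 1228 and 1524 of 13188 tested genes. Over both times, 29 to 34 members were called higher in lung under the alternatives run, and 0 were called lower. The lowest count came from a filter of 5 TPM, under which 31 members were tested. At 0 h the count was 19 to 31 and at 12 h 26 to 34. Leaving out 1 library gave 31 to 34 calls over both times, 19 to 29 at 0 h and 26 to 34 at 12 h. It gave 0 to 12 for time in lung, 0 to 4 for the interaction and 0 for time in ear, the highest 2 counts without lung 12 h number 1. The fit without lung 12 h number 1 leaves number 2 as the only lung library at 12 h. That library was highest in lung for 35 of the 36 tested members, so no conclusion is drawn from those 2 counts. The median difference by time in lung was 1.85 in that fit, against 0.04 over all tested genes. Without number 2 instead, it was 0.12, against −0.06. The log2 ratio of the lung to the ear mean of the summed level was 4.93, and it was 3.62 without Lyz1 and Lyz2 and 6.45 without Lyz2, Cd68, Gpnmb, Cd36, Cyba and Tlr4.

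With the number as a replicate block within a time, 34 members were called over both times, 21 at 0 h and 33 at 12 h, all higher in lung. In the same order, 1037, 384 and 604 of 13188 tested genes were higher and 1169, 361 and 560 were lower. The calls lost at 0 h were Cyba, Fcgr1, Fcgr2b and Lyz1. Within a tissue the replicate block left 0 calls for time in lung, in ear and in the interaction. With crossed numbers in lung, 0 members were called for time in lung. An unadjusted p under 0.05 was found for 26 of 36 members and 1181 of 13188 tested genes. Crossing pairs the lung libraries whose deviations correlate at 0.443, so smaller unadjusted p-values were in part built in.

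Single-gene values were followed for lung against ear at both times together and at each time, and for time in lung in Cd72, Aif1, Ms4a7, Fcgr1 and Plac8. Of these, 7 changed sign, all of Toll-like receptors that were not called. Over all tested members, the difference by time in lung was positive for 35 of 36 and, without lung 12 h number 2, for 21 of 34, and the interaction for 34 of 36 and 20 of 34. Tlr2 at 0 h went from −0.21 to 0.085 with array weights and to 0.14 without ear 0 h number 1 and lung 12 h number 2, and leaving out 1 library gave −0.67 to 0.26. Tlr4 at 12 h went from 0.11 to −0.085 without those 2 libraries, and leaving out 1 gave −0.085 to 0.30. A further 50 of the followed values lost their call, 29 gained one and 2171 kept direction and side. The cause was not tested. With upper-quartile scaling, 1207 genes were higher and 1147 lower in lung at 12 h, against 1064 and 1203, and 34 members were called in each. Depth is unknown, so levels under 1 TPM carry an unknown counting error.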
